A study of Mus musculus with 58 samples.

Results

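Brown adipocytes from mice returned to warmth after cold were compared with white adipocytes from mice that had known only warmth, using the mRNA bound to their tagged ribosomes. The comparison was the deposited log2 CPM (read counts of a gene scaled to its library's total, on a log2 scale) of 5 warm brown libraries minus that of 5 warm white libraries, over all 11603 rows of the table and 11544 gene symbols. These 10 libraries were taken by their group labels from 22 mRNA libraries, in a series of 58 samples that also holds chromatin samples not analysed here. All mice were of the strain C57BL/6J, on a chow diet, and carried NuTRAP, a Cre-dependent allele that puts a GFP tag on ribosomes, so that translating ribosome affinity purification (TRAP) with an antibody to GFP recovers mRNA from the tagged cells. The labels name Ucp1-NuTRAP and Adipoq-NuTRAP lines, in which Cre follows the brown and beige cell gene Ucp1 or the general adipocyte gene Adipoq. Which of them a given library came from is unstated.

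For warm brown, interscapular brown fat was taken from mice housed at 23 °C, kept at 4 °C for 1 week and then at 30 °C for 4 weeks. For warm white, the donors of the inguinal fat had lived at 30 °C since birth. The 12 other libraries, used for the shared estimate of the spread and for the levels given near the end, were cold brown (interscapular, after the week at 4 °C, n = 5), cold beige (inguinal, the same treatment, n = 4) and warm beige (inguinal, cold and then 30 °C, n = 3). Cell type, fat depot, housing history and possibly the Cre line all differed between the groups compared, and their parts in any difference cannot be told apart. The labels call each library a biological replicate and give neither age nor sex.

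Brown adipocytes burn fuel for heat. Norepinephrine from sympathetic nerves acts on beta-adrenergic receptors, cAMP rises, lipolysis frees fatty acids, and UCP1 in the inner mitochondrial membrane lets protons return to the matrix without making ATP. White adipocytes store triglyceride and secrete hormones such as leptin. At thermoneutrality, near 30 °C for a mouse, the drive on brown fat is low and its cells fill with lipid, which makes them look more like white cells. Brown cells of the interscapular depot come from a lineage close to that of skeletal muscle and skin of the back, and positional regulators such as the Hox genes mark where along the body a cell arose.

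Both groups had high levels of general adipocyte genes. Mean levels of Adipoq (adiponectin) were 9.61 in brown and 10.11 in white, those of Plin1 (perilipin 1, on the lipid droplet) 10.25 and 10.75, and those of Pparg (the master regulator of adipocytes) 8.10 and 7.65 log2 CPM. The pre-ribosomal RNA Rn45s took 0.110 to 0.597% of the summed CPM in brown and 2.06 to 2.41% in white, and its part in other differences was not tested. The depth of the libraries is unknown. Values at or below -5 log2 CPM were treated as a floor, and 37 to 56 rows lay there in a brown library and 78 to 149 in a white one. Library warm white 2 stood apart in skeletal muscle genes. Their summed level was 1114 CPM there, 53 to 75 CPM in the other white libraries and 124 to 160 CPM in brown. The brown sum rested on few of these genes, with means of 6.30 for Des, 4.83 for Mb, 3.92 for Myl1 and 3.65 log2 CPM for Atp2a1. All other members averaged 0.67 log2 CPM or less in brown.

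Most genes differed between the groups. Of the 11603 rows, 9161 (79.0%) passed the threshold of 0.05 on the p-value of limma adjusted by Benjamini and Hochberg, and these are termed called. Of all rows, 4742 (40.9%) were called higher in brown and 4419 (38.1%) lower, and the median difference over all rows was 0.03 log2 units. Called differences of at least 2-fold numbered 2217 higher (19.1%) and 1980 lower (17.1%), and those of at least 4 log2 units 271 and 224. In 7787 rows (67.1%) all 5 values of a group lay outside those of the other. With shares this high, a call for a single gene or for most of a list is common in these data, so sizes and levels carry more of the description than counts. Libraries fell into 2 batches, read from the values and not from the labels. Within batch 1 (2 brown, 3 white) 7230 rows were called and within batch 2 (3 brown, 2 white) 8368. No row called in a batch and over all libraries had opposite directions. Fits within a batch use fewer libraries. Whether a call lost there reflects the batch or that smaller number was not tested.

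**Figure D1:**
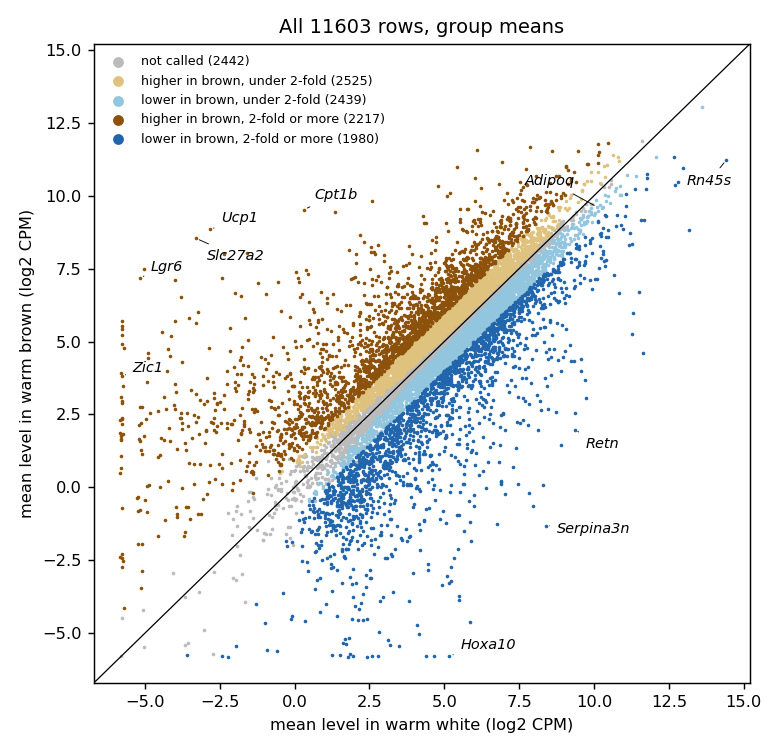
Mean level in warm white (x axis) against mean level in warm brown (y axis), both in log2 CPM, for 11603 rows, with the diagonal marking equal levels and colours marking the call and its size. The 2217 genes at least 2-fold higher in brown lie above the diagonal and the 1980 at least 2-fold lower lie below it, while Adipoq lies close to it.

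Thermogenic genes stood far above white levels in brown cells even after 4 weeks at 30 °C. All 27 measured genes of a list of thermogenic genes were called higher in brown, 26 of them by at least 2-fold, with a median difference of 5.66 log2 units against 0.03 over all rows. Their summed level ran from 7052 to 7698 CPM in brown libraries and from 399 to 524 CPM in white ones. This list was assembled from genes known to be high in brown fat, so its direction is a description of the samples and not an independent result.

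Ucp1 (chr8:83290348-83298456, GRCm38.p6) had levels of 8.84, 9.20, 8.37, 9.07 and 8.73 log2 CPM in brown libraries 1 to 5 and of -2.21, -5.59, -3.19, -1.11 and -1.99 in white libraries 1 to 5. Every brown library lay far above every white one, and warm white 2 was at the floor. The difference was 11.66 ± 0.49 (SE) log2 units (limma, adjusted p = 1.09e-15), and with 1 CPM added before the logarithm it was 8.58, since the low white values then count for less. Slc27a2, which activates very long-chain fatty acids and carries fatty acids into cells, was 8.54 ± 0.11 in brown (SD, n = 5). In white it was -3.29 ± 2.27, with 2 of 5 libraries at the floor.

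The bases before the start of transcription are shown for these genes, the ones with the largest differences in the thermogenic list, from the RefSeq promoter table of GRCm38.p6. Each run has 250 bases on the strand of the gene, 5′ to 3′, and ends at the base before the start. In the Slc27a2 run (chr2:126552774-126553023, plus strand) capitals mark a match, from base 27, to GGTCANAGG on the reverse strand, the core of the DR1 element that PPAR-RXR binds. The Ucp1 run (chr8:83290098-83290347, plus strand) held no match to any of the 4 motifs searched, whose letters and shares among all windows are given with the promoter counts.
Slc27a2: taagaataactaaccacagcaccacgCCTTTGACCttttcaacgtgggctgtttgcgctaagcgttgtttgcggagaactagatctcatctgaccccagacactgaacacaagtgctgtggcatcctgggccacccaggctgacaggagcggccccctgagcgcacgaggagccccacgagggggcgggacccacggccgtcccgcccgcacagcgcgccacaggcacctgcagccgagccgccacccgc
Ucp1: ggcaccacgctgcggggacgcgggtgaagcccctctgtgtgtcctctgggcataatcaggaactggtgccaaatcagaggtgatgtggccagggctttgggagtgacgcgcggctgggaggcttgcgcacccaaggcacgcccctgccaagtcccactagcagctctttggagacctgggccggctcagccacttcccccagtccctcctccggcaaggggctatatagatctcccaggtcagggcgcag

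Other members of the list had different roles and sizes. Cpt1b, the muscle and brown fat form of the enzyme that admits fatty acids to mitochondria, was 9.48, 9.75, 9.28, 9.59 and 9.52 log2 CPM in brown libraries 1 to 5. In white libraries 1 to 5 it was 0.97, 0.51, 0.45, -0.14 and -0.23. The groups were far apart, with a difference of 9.21 ± 0.19 (limma, adjusted p = 7.64e-21). Fabp3, a fatty acid-binding protein of oxidative tissues, Cox7a1, a cytochrome oxidase subunit of heart, muscle and brown fat, and Acot11, an acyl-CoA thioesterase, were 10.35, 9.62 and 9.62 log2 units higher in brown. Fabp3 and Cox7a1 were each at the floor in 1 of 5 white libraries, and with 1 CPM added their differences were 7.60 and 6.84.

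Dio2, the deiodinase that makes active thyroid hormone within the cell, averaged 5.81 ± 0.41 in brown and -1.66 ± 2.23 in white, where 1 of 5 libraries was at the floor. Cidea, a lipid droplet protein that separates brown from white cells, was 9.80 ± 0.09 in brown and 2.57 ± 0.75 in white, a difference of 7.23 ± 0.25. Ppargc1a, the coactivator of mitochondrial biogenesis, was 6.65, 6.89, 6.98, 6.81 and 6.66 in brown libraries 1 to 5 and 4.68, 5.02, 4.65, 4.31 and 4.32 in white ones, a 4.60-fold difference with no overlap (limma, adjusted p = 1.64e-13). The smallest difference of the list was that of Acot2, a mitochondrial thioesterase, at 0.56 ± 0.12 (lost within batch 1, limma, adjusted p = 0.127), followed by Esrra, an estrogen-related receptor of oxidative genes, at 1.33 ± 0.12.

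Elovl3, which elongates saturated fatty acids and responds strongly to cold, was low in both groups. It was -0.21, -0.55, -0.41, -0.10 and -0.59 log2 CPM in brown libraries 1 to 5, and 4 of 5 white libraries were at the floor, with warm white 4 at -2.99. The difference of 4.88 ± 0.49 on the deposited scale became 0.77 with 1 CPM added.

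**Figure D2:**
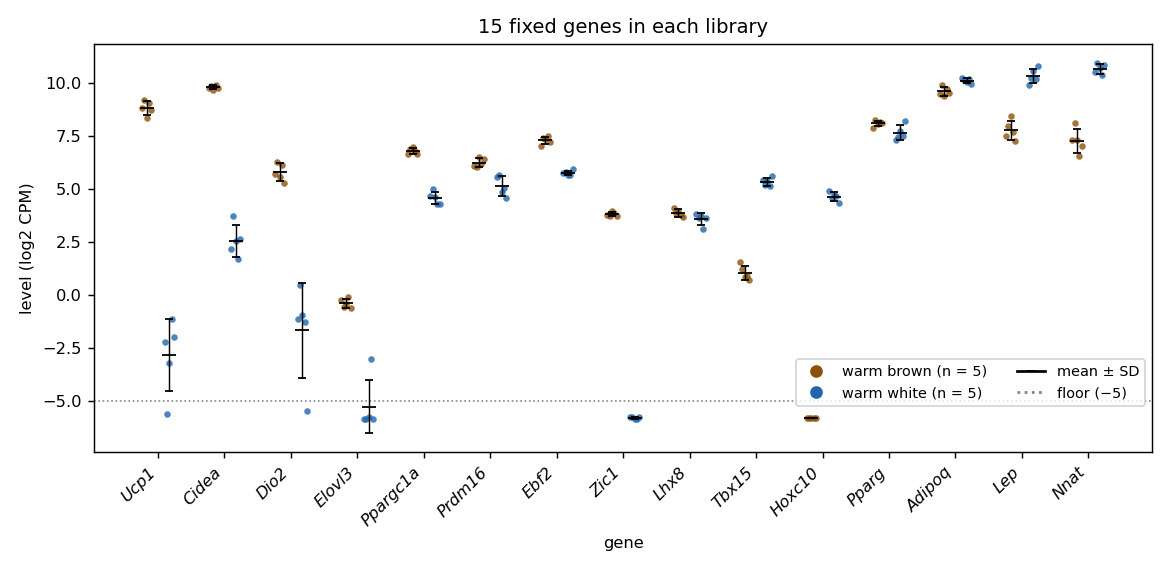
Level of 15 fixed genes (x axis) in each warm brown and warm white library (y axis, log2 CPM), with points for libraries, black bars for the mean ± SD (n = 5) and a dotted line at the floor of -5. Ucp1, Cidea and Dio2 are far higher in brown, Zic1 lies at the floor in white and Hoxc10 at the floor in brown, and Lhx8 and Pparg overlap.

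Genes of the mitochondrial respiratory chain were higher in brown throughout. The chain passes electrons from NADH and succinate through complexes I to IV to oxygen and drives ATP synthase. Of 37 measured subunits of complex I, 36 were called higher and none lower (median difference 1.92 log2 units), and the counts were 4 of 4 for complex II (1.99), 9 of 9 for complex III with cytochrome c (1.51) and 14 of 14 for complex IV (1.74). The summed level of complex I was 9847 to 11472 CPM in brown and 3027 to 3418 CPM in white. Ndufs8, an iron-sulfur subunit of complex I, was higher by 3.42 ± 0.15, Sdhb, the iron-sulfur subunit of complex II, by 3.03 ± 0.14 and Uqcrc2, a core subunit of complex III, by 3.16 ± 0.11. In complex IV the largest differences were in tissue-specific forms, Cox7a1 and Cox8b (6.34 ± 0.11). Cox6b2, another such form, was low in both groups, at 2.69 in brown and from -5.42 to 0.11 in white, and its difference of 5.05 ± 0.88 became 2.49 with 1 CPM added.

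ATP synthase showed a smaller shift with a named exception. Of 13 measured subunits 11 were called higher and 1 lower, with a median of 1.35 log2 units. Atp5o, the stalk subunit OSCP, was higher by 2.52 ± 0.11. Atp5g3, a gene for the proton-carrying ring subunit c, was lower in brown, at 7.40 ± 0.05 against 8.04 ± 0.17 log2 CPM, a difference of -0.64 ± 0.10 (limma, adjusted p = 2.09e-06). Its reads may be shared with near-identical copies of the same subunit.

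The machinery that feeds and builds the chain was also higher. In the citric acid cycle 21 of 22 genes were called higher and none lower (median 2.14), and their summed level was 22227 to 26268 CPM in brown and 4810 to 5800 CPM in white. Suclg1, a subunit of succinyl-CoA synthetase, was 9.62, 9.75, 9.32, 9.61 and 9.49 log2 CPM in brown libraries 1 to 5 and 5.93, 5.97, 5.78, 5.77 and 5.38 in white ones. The groups did not overlap, and the difference was 3.79 ± 0.13 (limma, adjusted p = 2.45e-17). Of 67 genes taken by symbol alone (Mrpl and Mrps) as mitochondrial ribosomal proteins, 61 were called higher and 2 lower, with a median of 0.99. The role of each member was not checked. Mrps36 (4.35 ± 0.36) and Mrpl34 (3.23 ± 0.13) led, and Mrpl20 and Mrps26 were the members lower in brown, by -0.60 ± 0.12 and -0.27 ± 0.08. The call for Mrps26 was lost within each batch (limma, adjusted p = 0.0957 and 0.0503).

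Coenzyme Q carries electrons from complexes I and II to complex III. Of 13 genes for its synthesis and transport 11 were called higher and 2 lower, with a median of 1.23. Adck3, a kinase-like protein needed for coenzyme Q synthesis, was 11.55 ± 0.14 log2 CPM in brown and 6.08 ± 0.18 in white, a difference of 5.47 ± 0.15, and the hydroxylase Coq6 was 3.26 ± 0.12 higher. Adck4, a relative of Adck3, differed by -0.60 and Coq10b by -0.42.

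Mitochondrial carriers of the SLC25 family moved both ways, 23 of 37 higher and 13 lower. Slc25a20, which brings acylcarnitines into the matrix, was 3.07 ± 0.08 higher, and Slc25a42, a coenzyme A carrier, 3.88 ± 0.08 higher. Slc25a10, which exchanges dicarboxylates for phosphate, went the other way. It was 2.39, 2.68, 2.90, 2.74 and 2.68 log2 CPM in brown libraries 1 to 5 and 8.79, 8.13, 8.37, 8.89 and 8.10 in white libraries 1 to 5. Every white library was above every brown one, with a difference of -5.78 ± 0.21 (limma, adjusted p = 6.84e-17). Slc25a25, an ATP-magnesium carrier, was likewise lower in brown, at -2.80 ± 0.23.

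Fatty acid oxidation genes were mostly higher in brown. Of 32 measured genes, 27 were called higher, 4 lower and 1 not called, with a median of 1.68. After Cpt1b, the mitochondrial thiolase Acaa2 had the largest difference (4.59 ± 0.11), followed by the thioesterase Acot13 (3.47 ± 0.16). Ehhadh, an enzyme of peroxisomal oxidation, was lower, at -0.93 ± 0.19, though its call was lost within batch 1 (-0.40, limma, adjusted p = 0.115). Acaa1a (-0.38) and Acaa1b (-0.33), also called lower, are peroxisomal thiolases whose calls were also lost within batch 1. Of 19 genes that break down branched-chain amino acids 16 were called higher and 2 lower (median 1.01), led by Bckdha, a subunit of the committed dehydrogenase, at 1.65 ± 0.07.

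Glycolytic genes were mostly higher in brown. Of 27 genes of glucose uptake, glycolysis and glycogen, 21 were called higher and 3 lower, with a median of 1.91. Pdk4, a kinase that shuts off pyruvate dehydrogenase, was 11.14 ± 0.17 in brown and 6.93 ± 0.20 in white. Aldoc, an aldolase known from brain, was 3.93 ± 0.13 in brown and at the floor in all 5 white libraries, so no fold change is given. Ldhb, the lactate dehydrogenase subunit of heart, was 4.00 ± 0.13 higher, and Gys2, the glycogen synthase known from liver, 4.64 ± 0.30 higher. Slc2a4, the insulin-responsive glucose transporter GLUT4, was 1.14 higher. The 3 lower members were Pfkfb2 (-0.69 ± 0.08), Pfkfb3 (-0.65 ± 0.11) and Slc2a1 (-0.42), which are regulators of phosphofructokinase and the glucose transporter GLUT1. The call for Slc2a1 was lost within each batch.

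Genes of fat synthesis split. Of 19 genes of de novo lipogenesis 7 were called higher and 7 lower. Elovl6, an elongase of palmitate, was 3.19 ± 0.10 higher in brown, Acacb, an acetyl-CoA carboxylase of mitochondria, 1.91 ± 0.13 higher and Acly, which makes cytosolic acetyl-CoA, 1.62 ± 0.25 higher. Fads1, the delta-5 desaturase of polyunsaturated fatty acids, was 2.08 ± 0.22 in brown and 6.86 ± 0.05 in white, a difference of -4.78 ± 0.21 (limma, adjusted p = 2.06e-15). Fasn, fatty acid synthase, was lower in brown, at -1.02.

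In triglyceride synthesis 7 of 12 genes were called higher and 5 lower. Gk, glycerol kinase, was 2.77 ± 0.11 higher and Gpd1, which makes glycerol phosphate from a glycolytic intermediate, 2.07 ± 0.12 higher. Agpat9, an acyltransferase of the first step, differed by -2.72 ± 0.12. Lipid droplet genes also split, with 8 of 21 higher and 11 lower. Plin5, which ties droplets to mitochondria, was 3.88 ± 0.15 higher, while Cidec, which enlarges droplets in white cells, and Plin4 were lower, at -1.43 ± 0.08 and -1.41 ± 0.09.

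Some regulators that place a cell along the body were at the floor in a whole group, whereas general regulators of brown fat were measured in both groups. Zic1 (chr9:91358058-91365768), a transcription factor of dorsal lineages, was 3.79, 3.75, 3.95, 3.88 and 3.74 log2 CPM in brown libraries 1 to 5 and at the floor in all 5 white ones. Ebf2, a determinant of brown precursors, was 7.30 ± 0.18 in brown and 5.76 ± 0.11 in white, a 2.91-fold difference. Prdm16, a coregulator that holds brown cells apart from muscle, was 6.25 ± 0.21 and 5.15 ± 0.46, a 2.14-fold difference.

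Lhx8, a homeobox gene used as a brown marker, did not pass the test. It was 4.10, 3.89, 3.97, 3.77 and 3.67 log2 CPM in brown libraries 1 to 5 and 3.81, 3.62, 3.75, 3.12 and 3.65 in white ones, so the groups overlapped. The difference was 0.29, with a 95% interval from -0.05 to 0.63 (limma, adjusted p = 0.108). It passed with 5 CPM added (0.21, limma, adjusted p = 0.0469). Of the 16 measured genes listed as brown developmental regulators 7 were called higher, 4 lower and 5 not called. Ebf3, Irx3 and Nfia, which are also transcription factors, had differences between 0.01 and 0.06. Eya2, a transcriptional coactivator and phosphatase of muscle development, was 5.66 ± 0.77 higher, on white values with 2 of 5 libraries at the floor, and 2.25 higher with 1 CPM added. En1, a homeobox gene of the dorsal dermomyotome lineage, was 0.01 ± 0.43 in brown and 2.59 ± 0.12 in white, a difference of -2.58 ± 0.32.

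The Hox genes lie in 4 clusters, and genes with higher paralogue numbers are generally used nearer the tail. Of 20 measured, 5 were called higher in brown, 13 lower and 2 not called, and all 20 are described here after their values were seen. In the A cluster Hoxa3, Hoxa4 and Hoxa5 were higher in brown by 1.44, 3.02 and 3.68 log2 units. Hoxa7 and Hoxa9 were lower, at -0.63 and -3.45. Hoxa10 (chr6:52231197-52240854) was at the floor in all 5 brown libraries and 5.60, 5.13, 5.04, 4.93 and 5.16 log2 CPM in white libraries 1 to 5.

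The C cluster had a similar order. Hoxc4 was 0.57 higher in brown, Hoxc5 was not called (0.07), Hoxc6 differed by -0.95 and Hoxc8 by -5.25 ± 0.56. Hoxc9 and Hoxc10 were at the floor in every brown library and 4.39 ± 0.25 and 4.65 ± 0.21 log2 CPM in white. In the B cluster Hoxb2 was not called (0.31), though it passed without warm white 5 (0.45, limma, adjusted p = 0.0297), and Hoxb3 was 0.92 higher, whereas Hoxb4, Hoxb6 and Hoxb7 were lower, at -0.41, -3.48 and -3.95. The D cluster genes Hoxd3, Hoxd8 and Hoxd9 were all lower, by -1.95, -0.53 and -3.20. With 1 CPM added Hoxb6, Hoxd3 and Hoxd9 differed by -1.67, -1.15 and -1.99. Within batch 1 the calls for Hoxb3, Hoxb4, Hoxc4 and Hoxd3 were lost, and within batch 2 that for Hoxb4.

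**Figure D3:**
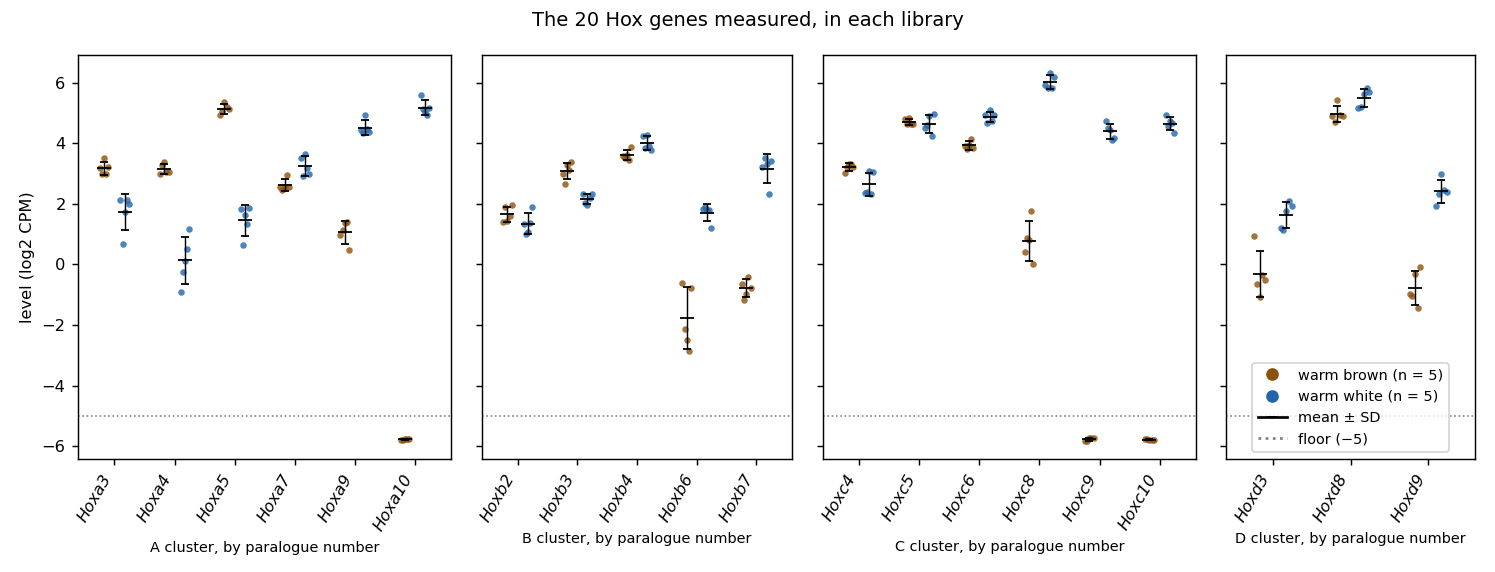
Level (y axis, log2 CPM) of the 20 measured Hox genes in each library, in 1 panel per cluster and ordered by paralogue number (x axis), with points for libraries, black bars for the mean ± SD (n = 5) and a dotted line at the floor of -5. The brown mean is above the white mean at Hoxa3, Hoxa4 and Hoxa5 and, by less, at Hoxc4, and Hoxa10, Hoxc9 and Hoxc10 lie at the floor in brown.

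The 250 bases before the start of Zic1 (chr9:91365769-91366018, minus strand) and before the upstream start of Hoxa10 (chr6:52240855-52241104, minus strand) are shown because these genes were at the floor in all 5 libraries of a group. Neither run held a match to those 4 motifs, so they are in lower case throughout.
Zic1: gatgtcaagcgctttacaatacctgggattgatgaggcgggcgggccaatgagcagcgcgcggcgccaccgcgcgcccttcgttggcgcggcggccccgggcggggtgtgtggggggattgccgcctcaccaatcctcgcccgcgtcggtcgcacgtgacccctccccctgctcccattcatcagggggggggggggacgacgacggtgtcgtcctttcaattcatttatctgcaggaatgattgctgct
Hoxa10: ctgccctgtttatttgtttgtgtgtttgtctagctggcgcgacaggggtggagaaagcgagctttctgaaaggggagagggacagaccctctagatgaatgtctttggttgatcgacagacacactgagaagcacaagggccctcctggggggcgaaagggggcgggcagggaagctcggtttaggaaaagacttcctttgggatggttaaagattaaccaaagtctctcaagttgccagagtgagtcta

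Of 17 other positional regulators, 12 were called lower in brown, 2 higher and 3 not called. Tbx15, a T-box factor of trunk and limb mesenchyme, was 1.56, 1.25, 0.87, 0.89 and 0.71 log2 CPM in brown libraries 1 to 5 and 5.43, 5.18, 5.38, 5.17 and 5.60 in white ones. The groups did not overlap (difference -4.30 ± 0.21, limma, adjusted p = 1.41e-14). Shox2, a homeobox factor of limbs, and Twist2, a factor of dermal mesenchyme, were lower, at -5.93 ± 0.27 and -5.27 ± 0.56, the latter -3.25 with 1 CPM added. Pbx3, a partner of Hox proteins, was 1.60 ± 0.24 higher.

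Genes known to be high in white fat were lower in brown, with named exceptions. Of 29 listed genes 26 were called lower and 3 higher, with a median of -2.87 log2 units. Like the thermogenic list, this list was assembled from genes known to be high in white cells. The largest differences were in Serpina3n, a secreted protease inhibitor (-9.71 ± 0.59), Slc7a10, an amino acid transporter of white adipocytes (-9.21 ± 0.45), Fgf13, an intracellular relative of fibroblast growth factors (-8.80 ± 0.66), and Trhde, a peptidase (-8.27 ± 0.65). Slc7a10 and Fgf13 were at the floor in 3 of 5 brown libraries each and Trhde in 1, and with 1 CPM added their differences were -4.19, -4.09 and -4.78. The members higher in brown were Fgf1, a growth factor (4.28 ± 0.27), Vldlr, a receptor for triglyceride-rich lipoproteins (1.64 ± 0.09), and Rb1, the retinoblastoma gene (0.66).

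Hormones of white fat differed by various amounts. Retn, resistin (chr8:3655770-3659818), was 2.32, 1.88, 1.66, 1.95 and 2.04 log2 CPM in brown libraries 1 to 5 and 9.35, 9.24, 9.44, 9.43 and 9.30 in white ones, a difference of -7.38 ± 0.26 (limma, adjusted p = 3.55e-17). Lep, leptin (chr6:29060221-29073876), was 7.51, 7.96, 8.43, 7.69 and 7.29 in brown and 9.92, 10.25, 10.56, 10.19 and 10.80 in white. The leptin groups did not overlap, and brown was lower, at -2.57 ± 0.33, a 5.93-fold difference. Adipoq differed far less, by -0.51 ± 0.14 (limma, adjusted p = 0.00193), and its call was lost within batch 1 (-0.41, limma, adjusted p = 0.17).

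Of 23 adipokines and secreted factors measured, 10 were called higher in brown and 11 lower. Agt, angiotensinogen, and Fgf10, a growth factor for preadipocytes, were lower, at -7.94 ± 0.73 and -5.31 ± 0.39, and Igf1 by -3.36 ± 0.23. Agt was low in brown, and with 1 CPM added its difference was -5.02. C1qtnf9, a relative of adiponectin, was 2.48 ± 0.38 higher. Nnat, neuronatin, an imprinted gene of the endoplasmic reticulum, was 7.27 ± 0.56 in brown and 10.68 ± 0.23 in white.

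Genes of adipocyte identity differed by very different amounts. Of 20 genes of adipocyte identity 6 were called higher, 13 lower and 1 not called, with a median of -0.62 and a range from -7.38 to 1.80. The list includes Retn, Lep and Adrb3, and 7 members were at least 2-fold lower and 2 at least 2-fold higher. The members with the smallest differences were Cd36, Pck1 and Lipe. Cd36, the fatty acid translocase, was 10.40 ± 0.14 in brown and 10.23 ± 0.09 in white, and the 95% interval of its difference ran from -0.04 to 0.38 (limma, adjusted p = 0.118). Lipe, hormone-sensitive lipase, differed by -0.36 ± 0.07 and lost its call within batch 1. Pck1, the enzyme of glyceroneogenesis, was 0.35 ± 0.15 higher (limma, adjusted p = 0.0417), a call lost within batch 1 (0.17, limma, adjusted p = 0.632) and when any of brown libraries 1 to 5 or white libraries 3 to 5 was left out. Aqp7, the glycerol channel, was 1.80 ± 0.10 higher.

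**Figure D4:**
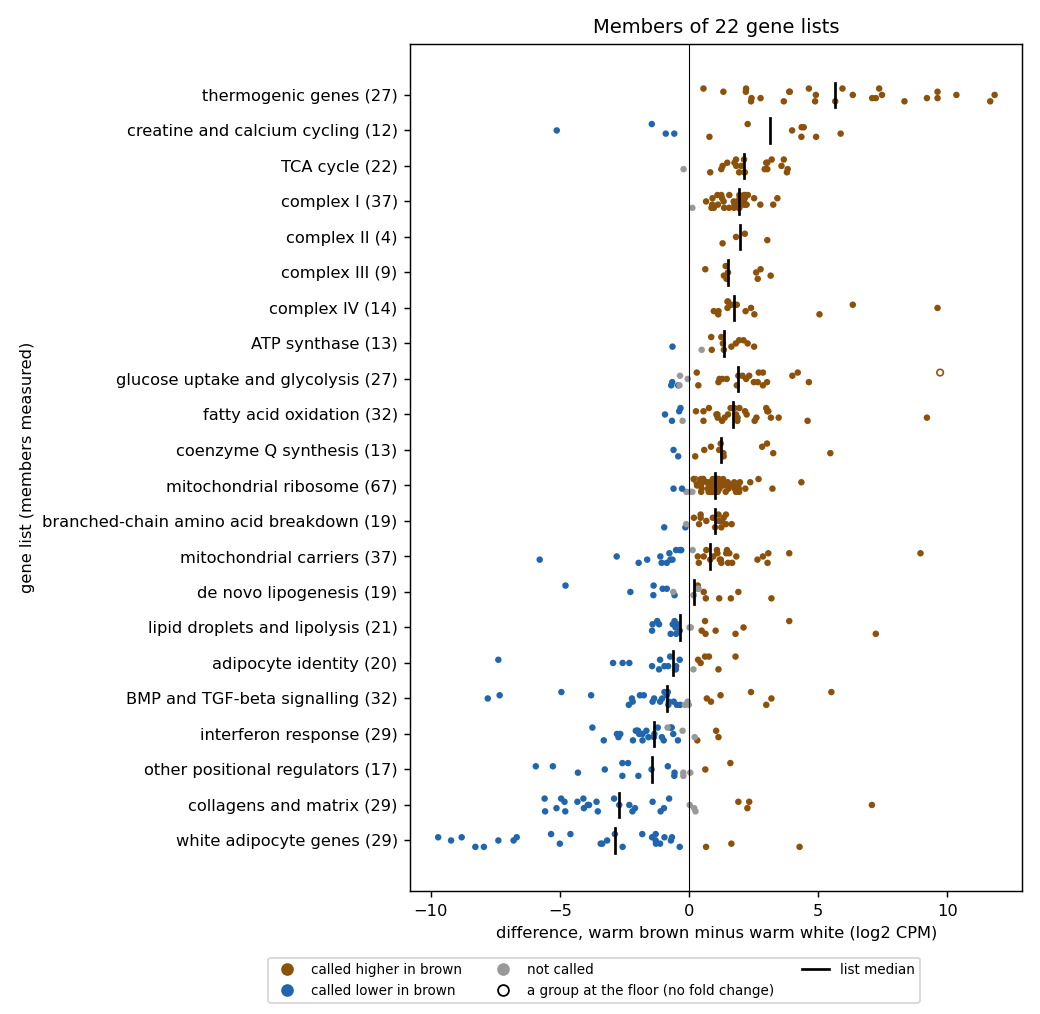
Difference in level between warm brown and warm white (x axis, log2 CPM) for the measured members of 22 gene lists (y axis), with filled points coloured by the call, an open point for a gene with a group at the floor and black bars at list medians. All 27 thermogenic genes lie to the right of 0, respiratory lists lie mostly between 0 and 4, and collagens and white adipocyte genes lie mostly to the left.

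Nuclear receptors are switches that bind lipids and hormones. Of 29 receptors and coregulators, 14 were called higher in brown, 9 lower and 6 not called, with a median of 0.05. Ppara, which drives fatty acid oxidation, was 10.10 ± 0.09 log2 CPM in brown and 5.06, 5.54, 4.92, 5.25 and 5.20 in white libraries 1 to 5. The difference was 4.91 ± 0.14 (limma, adjusted p = 1.39e-18) and no libraries overlapped. Pparg, by comparison, differed by 0.45 ± 0.13 and lost its call within batch 1 (0.41, limma, adjusted p = 0.172).

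Esrrg, an estrogen-related receptor of oxidative genes, was 8.34 ± 0.60 higher, on white values with warm white 2 at the floor. Nr4a1, an orphan receptor induced by cAMP, was 6.63 ± 0.11 in brown and -0.95 ± 1.04 in white. Nrip1, a corepressor of oxidative genes, was lower, at -2.87 ± 0.15.

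Genes of adrenergic signalling were called in both directions. Of 28 genes of adrenergic and cAMP signalling 13 were called higher in brown and 11 lower, with a median of 0.00. Adrb3, the beta-3 receptor of adipocytes, was 7.76, 7.13, 7.12, 7.03 and 6.74 log2 CPM in brown libraries 1 to 5 and 9.73, 9.64, 10.62, 9.95 and 10.55 in white ones. All white libraries were above all brown ones (difference -2.94 ± 0.20, limma, adjusted p = 5.12e-12). Pde4a, a phosphodiesterase that degrades cAMP, was 7.48 ± 0.10 in brown and 2.52 ± 0.09 in white, and Gnai1, an inhibitory G protein subunit, differed by -2.63 ± 0.11.

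Genes of creatine and calcium cycles, which can spend ATP for heat without UCP1, were mostly higher in brown, 8 of 12, with 4 lower. Itpr2, an inositol trisphosphate receptor that releases calcium, was 4.92 log2 units above a white level of 5.08 ± 0.38. Ckb, the brain form of creatine kinase, was 4.35 ± 0.18 higher, Alpl, the alkaline phosphatase tied to creatine cycling, 4.36 ± 0.30 higher (2.26 with 1 CPM added) and Camk2b, a calcium-dependent kinase, 5.87 ± 0.44 higher. The lower members were Ryr1, the calcium channel of skeletal muscle, Atp2a1 (-1.44), Gamt (-0.90) and Atp2a3 (-0.57). Ryr1 and Atp2a1 are also in the skeletal muscle list. Ryr1 lost its call with 5 CPM added (-0.95, limma, adjusted p = 0.0667).

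Growth factor pathway genes were more often lower than higher in brown. Of 20 insulin and IGF genes 11 were called lower in brown and 7 higher. Igfbp4, which binds insulin-like growth factors, was 3.08 ± 0.19 in brown and 9.72 ± 0.13 in white, Grb10, an adaptor that damps the insulin receptor, was 2.52 ± 0.25 in brown and 6.52 ± 0.19 in white, and Irs1, the main receptor substrate, differed by -1.86 ± 0.11. Of 32 BMP and TGF-beta genes 22 were called lower and 7 higher, with a median of -0.84. Chrdl1, a secreted BMP antagonist, differed by -7.33 ± 0.18 and Inhbb, the activin B subunit, by -4.94 ± 0.27, while Id2, a BMP-induced inhibitor of helix-loop-helix factors, was 5.51 ± 0.23 higher and Gdf5, a BMP ligand, 3.19 ± 0.30 higher.

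In the Wnt pathway 11 of 18 genes were called lower and 5 higher. Tcf7l2, a nuclear effector of Wnt, differed by -2.16 ± 0.12 and Apcdd1, a Wnt inhibitor, by -2.46 ± 0.31. Lgr6, a receptor for R-spondins that raise Wnt signals, had among the largest differences in the table. It was 7.94, 7.37, 7.18, 7.17 and 6.27 log2 CPM in brown libraries 1 to 5, with 4 of 5 white libraries at the floor and warm white 4 at -3.42. Wnt11, a noncanonical ligand, was 4.63 ± 0.32 higher.

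Matrix genes were mostly lower in brown. Of 29 collagens 22 were called lower and 4 higher, with a median of -2.70, and their summed level was 1033 to 1376 CPM in brown and 9227 to 12451 CPM in white. Col5a2, a chain of fibrillar collagen V, was 4.43, 3.77, 3.63, 3.91 and 4.14 log2 CPM in brown libraries 1 to 5. In white libraries 1 to 5 it was 9.10, 9.53, 9.64, 9.60 and 9.87. The groups were far apart (difference -5.57 ± 0.17, limma, adjusted p = 5.26e-18), and Col15a1, a basement membrane collagen, differed by -5.59 ± 0.23. Col12a1, a collagen that links fibrils, went the other way at 7.19 ± 0.36 in brown and 0.11 ± 0.85 in white. Of 18 laminin and basement membrane genes 11 were lower and 6 higher, with Nid1, nidogen, lower, at -4.51 ± 0.22 and Tinagl1, a matricellular protein, higher by 4.13 ± 0.18.

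Markers of fibroblasts and preadipocytes were also mostly lower in brown. Col1a1, Col1a2 and Col3a1 are in this list and among the collagens above, so the lists and their sums are not independent. Of 19 markers 13 were called lower in brown and 1 higher, with a summed level of 1692 to 1924 CPM in brown and 13068 to 15691 CPM in white. Gsn, gelsolin, took much of the white sum at 13.19 ± 0.10 log2 CPM. Pdgfra, a defining precursor receptor, was 2.08 ± 0.42 in brown and 4.23 ± 0.46 in white. Gas1, a membrane protein that modulates hedgehog signals, was 8.66 ± 0.16 in brown and 2.17 ± 0.14 in white. The part of such cells in the matrix differences was not tested, and in these pulldowns more cells of a type and more RNA per cell cannot be told apart.

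Marker genes of other cell types differed too. Of 20 endothelial markers 14 were called higher in brown and 1 lower, with a summed level of 212 to 366 CPM against 90 to 144 CPM, and Gpihbp1, the capillary anchor of lipoprotein lipase, was 2.82 ± 0.43 higher. Within batch 1, 9 endothelial markers were called higher. Of 11 macrophage markers 7 were called lower and none higher, with sums of 65 to 92 against 128 to 192 CPM, and Cd163, a scavenger receptor, differed by -3.06 ± 0.22. Of 17 skeletal muscle markers 12 were called lower and 3 higher, and without warm white 2 the counts were 11 and 3. With 5 CPM added, 7 were called lower. Ttn, titin, was 8.47 log2 CPM in warm white 2 and 1.77 to 3.85 in the other white libraries, and its difference was -4.20 with that library and -3.06 without it. The higher members included Mb, myoglobin, at 4.83 ± 0.35 in brown and -1.75 ± 0.81 in white, and Des, desmin, at 6.30 ± 0.21 and 2.42 ± 1.07. Of 13 mural markers 3 were higher and 5 lower, and the sums overlapped, at 304 to 434 and 266 to 427 CPM.

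Smaller lists of markers showed no common direction or were too short to describe. Of 6 Schwann and nerve markers 2 were higher and 3 lower, including S100b at 7.40 ± 0.15 against 0.04 ± 0.51, a gene that brown adipocytes also express and that is in the thermogenic list. Both lymphocyte markers measured were lower, and 2 of 3 red blood cell markers were higher. Of 3 mammary and epithelial markers Trp63 and Prlr were lower, and Esr1, also in the list of nuclear receptors, was 0.63 higher. The summed level of these 3 was 334 to 416 CPM in brown and 264 to 350 CPM in white.

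Interferon-induced genes were mostly lower in brown. Of 29 measured, 23 were called lower and 3 higher, with a median of -1.36. Their summed levels overlapped, at 1293 to 1413 CPM in brown and 1214 to 1616 CPM in white. Oasl2, of the antiviral oligoadenylate synthetase family, was 0.68 ± 0.24 in brown and 3.98 ± 0.57 in white, and Ifit3 differed by -2.79 ± 0.52. The members called higher were Ifi27 (1.14 ± 0.09), Rsad2 (1.05 ± 0.27) and Ddx58 (0.32), and the call for Rsad2 was lost within batch 1 and that for Ddx58 within each batch and without warm white 5 (0.23, limma, adjusted p = 0.0502).

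Imprinted genes, expressed from a single parental copy, included differences in both directions, 7 of 18 higher and 9 lower. Plagl1, a zinc finger regulator of other imprinted genes, was -1.51 ± 0.16 in brown and 5.67 ± 0.28 in white. Magel2 was 2.96, 3.68, 4.36, 3.51 and 2.81 log2 CPM in brown libraries 1 to 5 and at the floor in all 5 white libraries, and Ndn, its neighbour in the Prader-Willi region, was 2.71 ± 0.18 higher in brown. H19, a noncoding RNA, differed by -3.04 ± 0.52, and by -1.69 with 1 CPM added.

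Retinoid genes differed at single members, 5 of 14 higher and 5 lower. Aldh1a1, which makes retinoic acid, was 0.22 ± 0.69 in brown and 6.90 ± 0.60 in white, Rbp4, the retinol carrier of plasma, differed by -3.17 ± 0.18 and Cyp26b1, which degrades retinoic acid, was 3.31 ± 0.49 higher. Cytosolic ribosomal proteins leaned to brown, 42 of 72 called higher and 12 lower with a median of 0.33, but reads of these genes may be shared with pseudogenes. Lists of cholesterol synthesis (9 of 21 higher, 9 lower), heme synthesis and iron uptake (11 of 16 higher, 4 lower) and lysosome and autophagy (14 of 28 higher, 8 lower) had medians of 0.00, 0.68 and 0.12. Tfrc, the transferrin receptor, was 2.33 ± 0.25 higher.

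The largest differences in the table were not all genes of known thermogenic function. Among the 12 genes with the largest difference in each direction, those higher in brown included Kng2, a kininogen (7.49 ± 0.31 in brown, 4 of 5 white libraries at the floor), Me3, mitochondrial malic enzyme (7.12 ± 0.58, 3 of 5 white libraries at the floor), and Rab17, Arhgdig, Kcnj11, Cyp2b10 and the transcripts A530065N20Rik and A530050N04Rik, which were at the floor in all 5 white libraries. Rab17, a trafficking GTPase, was 5.71 ± 0.27 in brown, Kcnj11, a subunit of ATP-sensitive potassium channels, 4.92 ± 0.15 and Cyp2b10, a cytochrome P450, 4.76 ± 0.43. Those lower in brown included Wfdc21, a secreted inhibitor-like protein (5.85 ± 0.26 in white), Prr16 (5.50 ± 0.22), Ptgfr, the prostaglandin F receptor (3.49 ± 0.62), Cyp2f2, a cytochrome P450 (7.96 ± 0.20), and Klf14, a regulator of adipose gene expression linked to metabolic traits (3.20 ± 0.35), which was at the floor in 4 of 5 brown libraries.

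Genes with high CPM also differed. On this scale, which is not per length, the rows with the highest mean among those called and at least 2-fold different included Rn45s, Car3, Ahnak, Cfd, Malat1, Fasn and Fabp4, which were all lower in brown. Rn45s was 12.52, 10.04, 11.52, 11.49 and 10.54 in brown libraries 1 to 5 and 14.23, 14.56, 14.53, 14.25 and 14.51 in white ones. Cfd, the adipokine adipsin, and Fabp4, the adipocyte fatty acid-binding protein, were lower, at -2.31 ± 0.17 and -1.16 ± 0.11, and the nuclear RNA Malat1 by -2.35 ± 0.20.

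The levels in the other groups put these values in order. Ucp1 was 12.15 ± 0.28 in cold brown and 11.34 ± 0.25 in cold beige, 8.84 ± 0.32 in warm brown, 1.03 ± 0.59 in warm beige and -2.82 ± 1.72 in warm white. Elovl3 was 9.35 ± 0.18 in cold brown against -0.37 ± 0.21 in warm brown, and Gk 9.53 ± 0.22 against 6.20 ± 0.16. Zic1 was 4.14 ± 0.20 in cold brown and 3.82 ± 0.09 in warm brown and at the floor in all inguinal libraries, and Hoxa10 was at the floor in both brown groups and between 4.50 and 5.17 on average in the inguinal groups.

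Genes of white fat had another order. Lep was 1.52 ± 0.62 in cold brown, 7.78 ± 0.44 in warm brown, 5.98 ± 0.68 in cold beige, 9.29 ± 0.95 in warm beige and 10.34 ± 0.34 in warm white. Nnat went from -0.47 ± 0.43 in cold brown to 7.27 ± 0.56 in warm brown, where warm beige was 10.57 ± 0.30. Retn was 0.29 ± 0.73 in cold brown, 1.97 ± 0.24 in warm brown and 8.10 ± 0.63 in warm beige. Fasn was 14.01 ± 0.29 in cold brown and 14.10 ± 0.26 in cold beige, above 10.75 ± 0.25 in warm brown and 11.76 ± 0.42 in warm white.

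**Figure D5:**
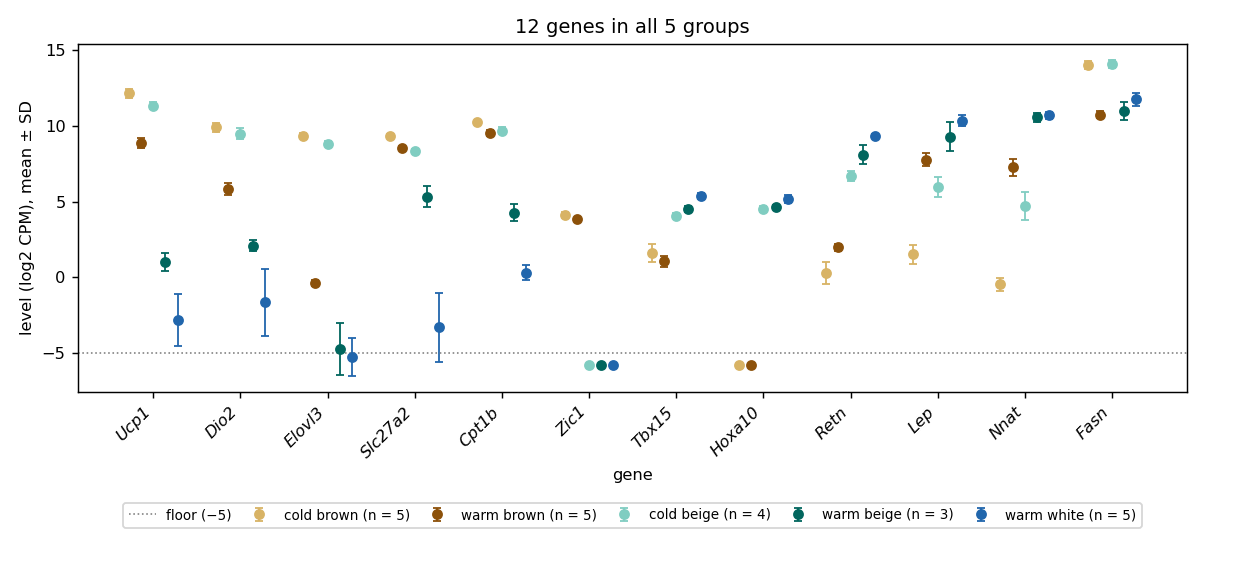
Mean level ± SD (y axis, log2 CPM) of 12 genes (x axis) in all 5 groups, with n given in the legend and a dotted line at the floor of -5. Ucp1, Dio2 and Elovl3 are lower in warm brown than in cold brown, Zic1 and Hoxa10 lie close together in both brown groups, and Lep and Nnat in warm brown lie between cold brown and warm white.

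Promoter windows of 300 bases, from 250 before to 50 after each start, could be matched for 8620 of 11544 symbols (11038 windows, RefSeq, GRCm38.p6). GGTCANAGG, the DR1 core, was found on either strand in 1.94% of windows of genes at least 2-fold higher in brown, in 1.58% for those at least 2-fold lower and in 1.58% of all windows. CCCNNGGG, the core of the EBF motif, was found in 18.14%, 20.08% and 18.20%. TCAAGGTCA, the motif of estrogen-related receptors, was in 0.24%, 0.17% and 0.24%, and TGACGTCA, the cAMP response element, in 2.75%, 1.58% and 3.11%. Letters of the ERR and DR1 motifs can overlap. These shares describe letters in the windows and not binding.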

How the data were processed

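Ribosome-bound mRNA was sequenced from 22 libraries in 5 groups (TRAP with an antibody to GFP, ribosomal RNA depletion, Nextera XT libraries, HiSeq2500, per the labels' protocols). The authors deposited 1 table of log2 CPM values, and per the submitters' processing notes they used HISAT2, Picard, featureCounts and edgeR with the build mm10; the roles, versions and annotation are not given in the sources used here. All columns were matched to samples by name, leaving 0 unmatched. The white columns are called warm in the table and in the titles and rewarmed in another label, and the title was followed. No counts could be recovered, so the depth of each library is unknown and no counting error can be given. The antilog values summed to 0.932 to 1.0075 of the nominal CPM total in white libraries and 0.9477 to 0.9844 in brown ones.

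Differences were fitted with limma 3.58.1 in R 4.3.3 (lmFit and eBayes with a trend, 5 group means, no covariate) on the deposited values of all 22 libraries, so that all groups share 1 estimate of spread with 17 residual degrees of freedom. An SE from that shared spread may be too small where 1 group spreads more than the others. For Ucp1 the SD was 1.72 in warm white and 0.32 in warm brown. P-values were adjusted by Benjamini and Hochberg over all 11603 rows, with a threshold of 0.05. The steps were tested on simulated data. Gene lists are described by counts and medians, with no set test, and 117 rows repeat a symbol. Lists were made from general knowledge of fat biology, with earlier results of these data in view.

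Genes were named by rule. The rule took 15 fixed genes, up to 4 called members of a list with the largest differences in its main direction and 2 in the other, and the 12 largest non-overlapping differences each way with a mean of at least 3 log2 CPM in the higher group. It also took the 8 called genes at least 2-fold different with the highest mean, and the 3 smallest differences of the adipocyte identity and thermogenic lists. Fewer were printed than it allowed, and some genes are not reported here. All Hox genes, Plin1, Slc2a4, Aqp7, Pdgfra, Prlr and the few exceptions to a list's direction or test were chosen after their values were seen. The groups, lists and rule were chosen with earlier results of these data known.

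The 2 batches (10 and 12 libraries) are not in the labels. They were read from rows at the floor throughout a depot, which take 2 sets of values among its libraries. No row differed by more than 0.005 log2 units between batches after the group means, so the deposited values already lack an average batch difference, and p-values of a fit that counts no batch term may be slightly too small. Alternatives covered added CPM, a filter on low values, scaling, library weights, the libraries fitted, batch, the replicate number as a block and each library left out. Promoters and gene positions are from RefSeq tables of GRCm38.p6. Positions on the table's own annotation were not used.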

Additional observations from a re-analysis of the deposited data

Results flagged for a closer look

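Of the named genes, 182 were examined for a library far from the other 4 of its group. Such a library was found in 25 of 364 groups (the gap to the nearest library was more than 0.71 of the group's range). Chance alone would flag about 1 group in 20. Values are log2 CPM.

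Among white libraries, warm white 4 was far above the others in Elovl3 (-2.99) and Lgr6 (-3.42) and far below them in Lhx8 (3.12) and Hoxb7 (2.33). Warm white 5 was far above in Kng2 (-1.96), Mrps36 (0.25) and Mrpl20 (6.88) and far below in Hoxb6 (1.20). Warm white 2 was far below in Esrrg (-5.61), Gk (3.10) and Hoxa3 (0.69) and far above in Des (4.28), a gene of muscle. Warm white 3 was far below in Gys2 (-1.42) and far above in Hoxa9 (4.94).

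Among brown libraries, warm brown 1 was far above the others in Cyp2b10 (5.52), Fabp4 (10.84) and Acaa1a (7.34), warm brown 2 in Ptgfr (-3.50), warm brown 3 in Klf14 (-3.94) and Inhbb (3.97), warm brown 4 in Hoxa7 (2.96) and warm brown 5 in C1qtnf9 (3.39). Warm brown 3 was far below in Ldhb (8.88), and warm brown 5 in Tfrc (6.87) and Ndn (7.38).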

How the results depend on the processing

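The number of called genes was 7230 to 9337 under every alternative run, against 9161, and 48.8 to 52.8% of calls were higher in brown. Leaving out each of the 10 libraries in turn gave 8893 to 9068 called genes, 4611 to 4697 higher, 4282 to 4378 lower and 4106 to 4246 at least 2-fold different. The count of called genes at least 2-fold different was 2623 with 5 CPM added, against 4197, since the added value shrinks differences of low genes. Scaling moved the median difference of all rows by -0.058 to 0.015 log2 units. Of 4181 values for 182 named genes over 23 alternatives, 4140 kept their side of the threshold, 37 lost the call and 4 gained it. None changed direction where the main fit or the alternative called the gene. Changes of direction in genes called in neither fit were not counted. Ebf3 gained the call within batch 2 (0.32, limma, adjusted p = 0.0097). The counts of list members moved by more than 1.5 times in 39 of 2116 cases.

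With the replicate number as a block 9144 genes were called, 4732 higher and 4412 lower, and 4193 were at least 2-fold different. Deviations of same-numbered brown and white libraries from their group means had correlations of -0.126 to 0.058. The highest correlation of each brown library with a white library of another number was 0.110 to 0.282. A highest value of several tends to exceed a single one, so this cannot decide whether same-numbered libraries belong together. Depth, and with it the counting error of low genes, is unknown.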
